A study of Homo sapiens with 32 samples.

Results

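The Toll-like receptor genes of B cells and the genes that work with them were followed in 2 human lymphoma cell lines treated with a compound the labels name only as CSKi. The set held 9 of the 25066 features in the deposited table. It was found by matching the table's gene column to the symbols TLR1 (gene ID 7096), TLR6 (gene ID 10333), TLR7 (gene ID 51284), TLR9 (gene ID 54106), TLR10 (gene ID 81793), CD180 (gene ID 4064), LY86 (gene ID 9450), MYD88 (gene ID 4615) and UNC93B1 (gene ID 81622). All 9 symbols matched, and all 9 were abundant enough to be tested in every comparison. The symbols were chosen by name, but with the measured levels per line and the CSKi against DMSO changes of these data in view. Their levels, fold changes and calls are therefore a description of these genes, and no count of calls is read as a result about the set.

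Bulk RNA sequencing covered 32 libraries, 16 from TMD8 and 16 from DOHH2, both labelled as human lines of diffuse large B cell lymphoma with the genotype "Cas9 engineered". Cells of each line received CSKi at 500 nM or the vehicle DMSO, and were collected at 1, 3, 6 or 24 h, with 2 libraries in each of the 16 groups. The Cas9 change is shared by treated and vehicle cells, and whether each engineered line is 1 clone is not stated. Duplicates are titled as biological replicates, but nothing adds that they came from separate cultures, so p-values measure only the spread between these libraries. As background, TMD8 represents the activated B cell-like subtype and is known to carry an activating change in MYD88, while DOHH2 is of germinal centre origin.

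Toll-like receptors sense microbial products and, in the endosome, nucleic acids. TLR7 binds single-stranded RNA and TLR9 binds CpG DNA in endosomes, and both depend on UNC93B1 to leave the endoplasmic reticulum. TLR1 and TLR6 work at the cell surface as partners of TLR2 on bacterial lipopeptides, while TLR10 is a surface receptor of B cells whose ligand is unsettled. CD180 resembles a Toll-like receptor outside the cell but lacks the signalling domain inside it, and it is held at the surface of B cells by the small secreted protein LY86, also called MD-1. MYD88 is the adaptor that carries the signal from nearly all of these receptors to the IRAK kinases and NF-kB, and in lymphoma of the activated B cell-like subtype it has been found in a complex with TLR9 and the B cell receptor.

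The genes lie on several chromosomes, and TLR1, TLR6 and TLR10 share the minus strand of chromosome 4 in GRCh38. Promoters came from the RefSeq table (GRCh38.p14), where 5 of the 9 members matched (MYD88, TLR9, TLR6, CD180 and LY86), with TLR1, TLR7, TLR10 and UNC93B1 unmatched. The bases just before the transcription start are shown for TLR9 and CD180, the 2 matched members that fell in both lines at 1 time or more. Each is given as 250 bases on the gene's own strand, 5′ to 3′, ending at the base before the start. The TLR9 stretch lies at chr3:52225646-52225895 and the CD180 stretch at chr5:67196800-67197049, both on the minus strand. Capitals mark matches to 2 short motifs of lymphoid promoters, the octamer and the PU box.
TLR9: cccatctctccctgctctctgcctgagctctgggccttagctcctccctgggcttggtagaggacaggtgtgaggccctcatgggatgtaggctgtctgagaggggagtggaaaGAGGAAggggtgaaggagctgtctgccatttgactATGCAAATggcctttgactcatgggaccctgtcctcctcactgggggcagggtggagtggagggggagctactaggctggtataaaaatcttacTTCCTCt
CD180: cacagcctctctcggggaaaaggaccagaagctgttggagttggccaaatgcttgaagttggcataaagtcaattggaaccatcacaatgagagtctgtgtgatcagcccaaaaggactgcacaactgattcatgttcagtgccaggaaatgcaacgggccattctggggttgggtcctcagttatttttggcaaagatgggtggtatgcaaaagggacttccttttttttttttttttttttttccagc
In the TLR9 stretch the octamer ATGCAAAT starts 101 bases before the transcription start, and the PU box GAGGAA is found 136 bases before it and, on the opposite strand, 7 bases before it. Among 35116 promoters searched over the same length on both strands, 1.63% held the octamer and 23.6% held the PU box. The CD180 stretch held neither, and neither stretch held the NF-kB motif (1.73% of promoters), the ETS-IRF composite motif (2.41%, whose letters can overlap a PU box), the EGR motif GCGTGGGCG (0.72%) or the E-box CACGTG (6.34%). The PU box was also present in the MYD88, TLR6 and LY86 stretches. These matches are letters in a window and were not tested as binding sites.

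The libraries held 12273442 to 24907030 mapped reads. A level is given as the deposited log2 of a normalised read count, so that a difference of 1 is a doubling. All 6 B cell markers examined averaged over 100 reads in both lines, none of 6 T and NK cell markers did in either line, and 2 of 7 myeloid markers did in DOHH2 only. Of 6 fibroblast and epithelial markers 1 did, COL1A1 in TMD8, at 217 to 640 reads. A marker list of plasmacytoid dendritic cells, which share TLR7 and TLR9 with B cells, had 2 of 4 genes over 100 reads in TMD8, GZMB and IL3RA, with none of the 4 at 0 there. Its log2 summed level at 3 and 6 h in TMD8 was 13.6 to 13.8 in CSKi libraries and 13.6 to 13.7 in DMSO libraries. Of its 4 genes 1 was lower and 0 were higher with CSKi at 3 h in TMD8 (limma, adjusted p under 0.05), with a list median log2 fold change of -0.09. At 6 h 1 was again lower and 0 were higher, with a median of 0.17. LILRA4 within that list had 60 and 65 reads in CSKi libraries against 115 and 109 in DMSO libraries at 3 h. At 6 h it had 20 and 26 reads in CSKi libraries, against 83 and 102 in DMSO libraries. The part of these markers in the results was not tested. In bulk RNA, fewer cells that express a gene and less of its RNA per cell cannot be told apart.

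The DOHH2 libraries at 24 h stood apart from the rest. CSKi replicate 2 and DMSO replicate 1 were closer to each other (standard deviation of their log2 difference over all tested features 0.218) than either was to its own duplicate. The duplicates differed by 0.381 in CSKi and by 0.328 in DMSO, and CSKi replicate 1 differed from DMSO replicate 2 by 0.275. Over the 9 members the mean absolute difference was 0.154 between CSKi replicate 2 and DMSO replicate 1, against 0.411 within the CSKi and 0.408 within the DMSO duplicates. By this closeness the treatment labels of DOHH2 at 24 h look crossed, which was not tested. The DOHH2 comparisons below therefore use 1, 3 and 6 h, and 24 h is given apart, as labelled. A lack of calls at 24 h in DOHH2 cannot be read as a lack of response.

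In vehicle-treated cells the 2 lines had different levels of most receptors, while the adaptor MYD88 lay close together in both. TMD8 had more RNA of the endosomal receptors TLR7 and TLR9 and of their chaperone UNC93B1, and more CD180 and TLR6. DOHH2 had more TLR10 and more LY86. Over the DMSO libraries at 1, 3 and 6 h, 7 of the 9 members differed between the lines at adjusted p under 0.05, 5 higher and 2 lower in TMD8 (89.4% of all 12000 tested features differed, 43.8% higher and 45.6% lower). The tests here and below are limma's on the deposited log2 values, two-sided, with Benjamini-Hochberg adjustment over the 12000 features of highest mean.

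TLR7 averaged 9.31 ± 0.19 in TMD8 and 7.17 ± 0.36 in DOHH2 (SD, n = 6 each), a log2 difference of 2.14 ± 0.07 (SE, adjusted p = 5.47e-19), or 4.42-fold. TLR9 averaged 11.86 ± 0.08 in TMD8 and 10.23 ± 0.22 in DOHH2 (SD, n = 6 each), a difference of 1.63 ± 0.04 by limma. UNC93B1 averaged 12.36 ± 0.05 in TMD8 and 10.86 ± 0.16 in DOHH2, a difference of 1.51 ± 0.04. For these 3 genes every TMD8 library lay above every DOHH2 library. CD180 averaged 11.68 ± 0.10 in TMD8 and 10.86 ± 0.20 in DOHH2, and TLR6 averaged 7.55 ± 0.28 in TMD8 and 6.79 ± 0.22 in DOHH2. In the other direction, TLR10 averaged 9.27 ± 0.09 in TMD8 and 9.93 ± 0.24 in DOHH2, and LY86 averaged 8.53 ± 0.20 in TMD8 and 9.22 ± 0.09 in DOHH2. The groups did not overlap for any of these 4 either, so that all 7 called members had separate groups, 5 higher and 2 lower in TMD8, beside 35.3% of features with separate groups higher and 36% lower. Marker lists differed between the lines as well: in TMD8 5 of 6 B cell markers were higher and 1 lower, with a median log2 difference of 0.93, and their part in the member differences was not tested. The SD includes change over the 3 times, since each mean covers 2 libraries per time.

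MYD88 and TLR1 showed no called difference between the lines. MYD88 averaged 12.09 ± 0.04 in TMD8 and 12.05 ± 0.03 in DOHH2 (SD, n = 6 each), with a log2 difference of 0.03 ± 0.02 (SE, limma adjusted p = 0.182). Under median of ratios scaling that difference was 0.07 and was called. TLR1 averaged 7.40 ± 0.24 in TMD8 and 7.47 ± 0.49 in DOHH2, a difference of -0.07 ± 0.09 (limma adjusted p = 0.451).

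**Figure D1:**
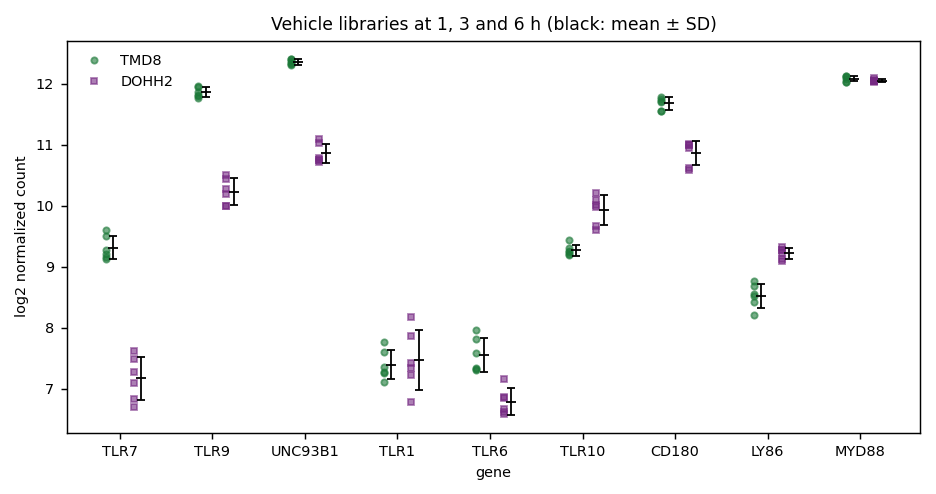
Log2 normalised counts (vertical axis) of the 9 genes (horizontal axis) in the 6 DMSO libraries of TMD8 (circles) and of DOHH2 (squares) at 1, 3 and 6 h, with the mean ± SD in black. TLR7 sits 2.14 log2 units higher in TMD8, TLR10 and LY86 sit lower there, and MYD88 is level at 12.09 in TMD8 and 12.05 in DOHH2.

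Divided by exonic length (GENCODE v29, as log2 level per kb), UNC93B1 led in TMD8 at 11.2 and MYD88 followed at 10.6. TLR9 came next at 9.91, then CD180 at 9.25, LY86 at 8.20, TLR10 at 7.23, TLR7 at 6.99, TLR1 at 5.89 and TLR6 at 5.00. In DOHH2 the order per kb was MYD88 (10.5), UNC93B1 (9.65), LY86 (8.90), CD180 (8.43), TLR9 (8.28), TLR10 (7.88), TLR1 (5.96), TLR7 (4.85) and TLR6 (4.24). Neighbours that differed by less than the sum of their SDs were TLR10 and TLR7 in TMD8, and CD180 and TLR9, as well as TLR9 and TLR10, in DOHH2. TLR9 stood above LY86 per kb in TMD8 and below it in DOHH2. In these 6 vehicle libraries TLR1 had 86 to 124 reads and TLR6 90 to 178 in TMD8, the fewest of the members there. In DOHH2 TLR6 had 61 to 100 reads, TLR7 81 to 163 and TLR1 84 to 193. At the lowest of these, counting alone gives a coefficient of variation of 10.8% for TLR1 in TMD8 and of 12.8% for TLR6, 11.1% for TLR7 and 10.9% for TLR1 in DOHH2. TLR1 and TLR6 also share sequence: 149 stretches of 75 bases, the read length, occur in both. That is 3.14% of those in TLR1 and 2.45% of those in TLR6, so a small part of their reads may not tell them apart.

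The members were not constant under vehicle. In DOHH2, 6 of 9 members changed between 1 and 6 h of DMSO (limma F test, adjusted p under 0.05), as did 52.9% of all features. The log2 change at 6 h against 1 h was -1.01 for TLR1, -0.78 for TLR7, -0.48 for TLR9, -0.41 for TLR10, -0.40 for CD180 and -0.31 for UNC93B1. TLR6, LY86 and MYD88 were not called, and the call for UNC93B1 was lost without DOHH2 DMSO 1 h replicate 1 (adjusted p = 0.0501), without a filter on low features (0.0729) and without the variance trend (0.0844). In TMD8, 6 of 9 members changed over the 4 times, as did 58.4% of features. At 24 h against 1 h TLR10 was 0.49 higher and CD180 0.21 higher, while MYD88 was -0.20 and UNC93B1 -0.14. TLR7 was -0.40 at 6 h and -0.29 at 24 h, and LY86 was 0.41 higher at 6 h and -0.10 at 24 h. TLR1, TLR6 and TLR9 were not called (limma F test, adjusted p = 0.0517, 0.108 and 0.0678), but each was called under some other setting. Apart from leaving out a library, the settings tried called 6 to 9 members in TMD8. The call for TLR7 was lost without TMD8 DMSO 1 h replicate 2 (adjusted p = 0.112). Each CSKi group was therefore compared with the DMSO group of its own time.

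In TMD8, CD180 and several of the 5 Toll-like receptors fell with CSKi at 3 and 6 h, and at 24 h no member was called below vehicle. CD180 fell about 2-fold at 3 and 6 h, TLR7, TLR10 and TLR1 fell by less at both, and TLR9 fell at 3 h only. At 24 h TLR7, TLR9, UNC93B1 and LY86 were higher than vehicle. MYD88 and TLR6 were not called at any time.

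No member was called in TMD8 at 1 h, where 0.05% of features were called (6 of 12000). By unadjusted p under 0.05 there was 1 member, LY86, and voom on recovered reads called 0 members. At 3 h 5 members fell and none rose, beside 4.73% of all features called (3.26% lower and 1.48% higher). At 6 h 5 fell and 1 rose, beside 12.6% called (6.98% lower and 5.67% higher). At 24 h 4 rose and none fell, beside 54% called (27.9% higher). The median log2 fold change of the members was -0.41 at 3 h, -0.14 at 6 h and 0.10 at 24 h, against 0.01, 0.02 and 0.02 over all features tested.

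Some marker lists were higher with CSKi at 24 h in TMD8, as were 4 of the 9 members. Of the 6 B cell markers 5 were higher with CSKi and none lower, with a median fold change of 0.38 and a log2 summed level of 17.1 in both CSKi libraries against 16.6 in both DMSO libraries. Of the 3 tested fibroblast and epithelial markers 2 were higher, COL1A1 at 1.55 and COL1A2 at 0.89, and the list's log2 summed level was 10.4 to 10.5 in CSKi libraries against 9.07 to 9.12 in DMSO libraries. The 1 tested myeloid marker, ITGAM, was also higher, at 0.74, and the summed level of that list was 7.12 to 7.47 in CSKi libraries against 6.42 to 6.68 in DMSO libraries. Of the 4 plasmacytoid dendritic cell markers 1 was higher and 1 lower, with a median of -0.05. The log2 summed level of that list was 14.0 to 14.1 in CSKi and in DMSO libraries alike. The 1 tested T and NK cell marker was at 0.46 without a call. At 3 h no B cell, myeloid or fibroblast and epithelial marker was called, and at 6 h 1 B cell marker and 1 fibroblast and epithelial marker were higher. The part of these markers in the 24 h values of the members was not tested.

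CD180 levels in TMD8 at 1 h were 11.74 and 11.77 in CSKi libraries, against 11.76 and 11.71 in DMSO libraries. At 3 h they were 10.72 and 10.65 in CSKi libraries, against 11.79 and 11.72 in DMSO libraries. At 6 h they were 10.52 and 10.42 in CSKi libraries, against 11.55 and 11.55 in DMSO libraries. Both CSKi libraries thus lay about 1 unit below both DMSO libraries at 3 and 6 h, and the groups overlapped at 1 h. The log2 fold change was -1.07 ± 0.05 at 3 h (SE, limma adjusted p = 1.54e-14) and -1.08 ± 0.05 at 6 h (adjusted p = 2.29e-14), or 2.10-fold and 2.11-fold lower. At 24 h CD180 measured 11.85 and 11.94 in CSKi libraries, against 11.94 and 11.95 in DMSO libraries, a fold change of -0.05 ± 0.05 that was not called. These calls held without each library in turn.

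LY86, the partner of CD180, was called higher in TMD8 at 6 and 24 h, of which CD180 was called lower only at 6 h. At 3 h, where CD180 fell, LY86 was at -0.11 ± 0.10 (SE) without a call. At 6 h it measured 9.06 and 9.05 in CSKi libraries, against 8.68 and 8.77 in DMSO libraries. At 24 h it measured 8.94 and 8.88 in CSKi libraries, against 8.24 and 8.21 in DMSO libraries. The groups were apart at both times, with log2 fold changes of 0.33 ± 0.10 (SE, limma adjusted p = 0.0319) and 0.69 ± 0.10 (adjusted p = 2.81e-06). The 6 h call was lost without any 1 of its 4 libraries (adjusted p = 0.0838 to 0.216), while the 24 h call held. The level of CD180 minus that of LY86 in the same TMD8 library, a log2 difference not corrected for length, was 1.47 and 1.37 in CSKi libraries at 6 h, against 2.87 and 2.78 in DMSO libraries. At 24 h it was 2.91 and 3.06 in CSKi libraries, against 3.71 and 3.75 in DMSO libraries, so the CSKi libraries were still lower although CD180 alone was not called at that time.

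Among the endosomal receptors, TLR7 measured 8.54 and 8.48 in TMD8 CSKi libraries at 3 h, against 9.27 and 9.21 in DMSO libraries. At 6 h it measured 8.66 and 8.41 in CSKi libraries, against 9.14 and 9.16 in DMSO libraries. At 24 h it measured 9.54 and 9.84 in CSKi libraries, against 9.19 and 9.33 in DMSO libraries. The groups were apart at all 3 times, low with CSKi at 3 and 6 h and high at 24 h. The log2 fold changes were -0.73 ± 0.10 (SE, limma adjusted p = 1.87e-05), -0.61 ± 0.10 (adjusted p = 9.43e-05) and 0.43 ± 0.10 (adjusted p = 0.000715), and no setting tried ended these calls.

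TLR9 measured 11.53 and 11.47 in TMD8 CSKi libraries at 3 h, against 11.95 and 11.87 in DMSO libraries. At 6 h it measured 11.71 and 11.71 in CSKi libraries, against 11.77 and 11.82 in DMSO libraries. At 24 h it measured 12.44 and 12.32 in CSKi libraries, against 11.92 and 11.97 in DMSO libraries. TLR9 was thus lower in both CSKi libraries at 3 h and higher in both at 24 h. The log2 fold changes were -0.41 ± 0.05 at 3 h (SE, limma adjusted p = 4.09e-06) and 0.43 ± 0.05 at 24 h (adjusted p = 1.17e-07), with -0.09 ± 0.05 at 6 h, which was not called (adjusted p = 0.328).

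UNC93B1 moved late and by little. It measured 12.22 and 12.18 in TMD8 CSKi libraries at 6 h, against 12.35 and 12.32 in DMSO libraries, and 12.60 and 12.47 at 24 h in CSKi libraries, against 12.22 and 12.18 in DMSO libraries. The log2 fold change was -0.14 ± 0.04 at 6 h (SE, limma adjusted p = 0.0406), a call that was lost without any 1 of the 4 libraries (adjusted p = 0.106 to 0.234), without a filter on low features (0.101) and without the variance trend (0.136), and 0.33 ± 0.04 at 24 h (adjusted p = 6.39e-07). At 24 h TLR7, TLR9 and UNC93B1 were all higher with CSKi, by 0.33 to 0.43.

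Among the surface receptors, TLR10 measured 8.79 and 8.80 in TMD8 CSKi libraries at 3 h, against 9.19 and 9.32 in DMSO libraries, and 8.71 and 8.75 in CSKi libraries at 6 h, against 9.21 and 9.26 in DMSO libraries. The groups were apart at both times, with log2 fold changes of -0.46 ± 0.11 (SE, limma adjusted p = 0.0117) and -0.51 ± 0.11 (adjusted p = 0.00205). The 3 h call was lost without CSKi replicate 1 (adjusted p = 0.0991), CSKi replicate 2 (0.0995) or DMSO replicate 2 (0.157), without a filter on low features (0.09996) and without the variance trend (0.119). At 24 h TLR10 measured 9.49 and 9.99 in CSKi libraries, against 9.78 and 9.87 in DMSO libraries, overlapping, and without CSKi replicate 2 it was called lower at -0.33 (adjusted p = 0.0074).

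TLR1 measured 6.52 and 6.71 in TMD8 CSKi libraries at 3 h, against 7.11 and 7.37 in DMSO libraries, and 6.76 and 6.75 in CSKi libraries at 6 h, against 7.28 and 7.27 in DMSO libraries. The groups were apart at both times, with log2 fold changes of -0.63 ± 0.15 (SE, limma adjusted p = 0.0139) and -0.52 ± 0.15 (adjusted p = 0.0252). These rest on few reads, 58 and 68 in CSKi libraries at 3 h against 86 and 86 in DMSO libraries. At 6 h there were 71 and 80 reads in CSKi libraries, against 106 and 122 in DMSO libraries. The 3 h call was lost without CSKi replicate 1 (-0.53, adjusted p = 0.171) or DMSO replicate 2 (-0.50, adjusted p = 0.188). The 6 h call was lost without any 1 of the 4 libraries (adjusted p = 0.111 to 0.131) and without a filter on low features (adjusted p = 0.0510). TLR6, the other partner of TLR2, ranged from 7.46 to 8.18 in the 8 TMD8 CSKi libraries and from 7.30 to 7.96 in the 8 DMSO libraries, with fold changes between -0.11 and 0.33 and no call.

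MYD88 stayed between 11.84 and 12.10 in the 8 TMD8 CSKi libraries and between 11.85 and 12.13 in the 8 DMSO libraries. Its fold changes in TMD8 ran from -0.09 ± 0.04 at 6 h (SE, limma adjusted p = 0.162) to 0.01 ± 0.04 at 1 h, with no call.

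**Figure D2:**
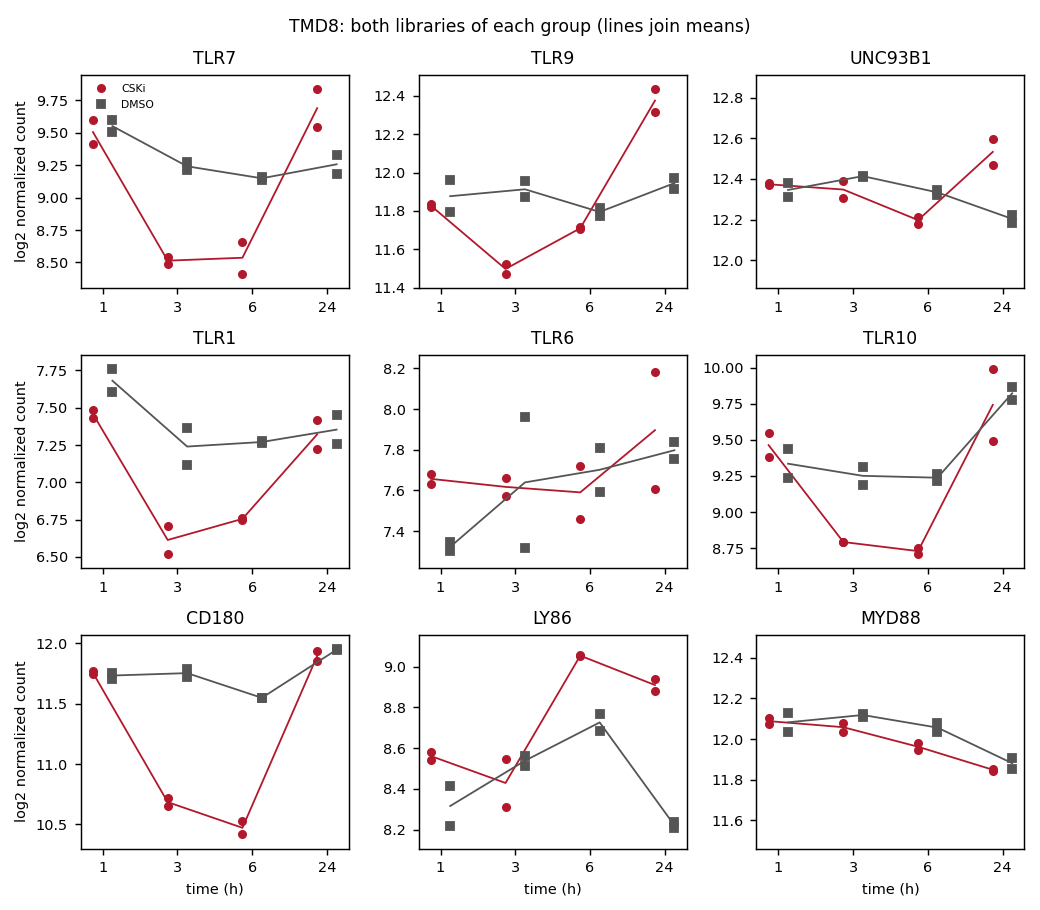
Log2 normalised counts (vertical axis, 1 panel per gene with its own range) of both TMD8 libraries of each group against time in h (horizontal axis, evenly spaced), CSKi as circles and DMSO as squares, with lines through the means. CD180, TLR7, TLR1 and TLR10 dip with CSKi at 3 and 6 h and CD180 is back at 11.85 and 11.94 by 24 h, whereas LY86 stands above DMSO at 6 and 24 h.

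In TMD8 the response itself changed over time for 6 members, TLR7, TLR9, TLR10, CD180, LY86 and UNC93B1 (limma F test of the fold change across the 4 times, adjusted p under 0.05), beside 39.4% of all features. TLR1, TLR6 and MYD88 were not called in this test. Without the variance trend TLR10 was not called (adjusted p = 0.0579) and TLR1 was (0.0344).

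In DOHH2 the largest fold change of any member was that of TLR9 at 1 h. TLR9 fell at all 3 times, and TLR10 was also lower at each. CD180 was lower at 1 h and level with vehicle at 3 and 6 h. LY86, UNC93B1 and MYD88 were lower at 6 h. TLR7, TLR1 and TLR6 were not called at any of the 3 times. At 1 h 3 members fell, beside 2.05% of features called (1.23% lower and 0.825% higher). At 3 h 2 fell, beside 14.5% (7.27% lower), and at 6 h 5 fell, beside 13.6% (6.67% lower). No member rose. The median log2 fold change of the members was -0.06 at 1 h, -0.04 at 3 h and -0.17 at 6 h, and that of all features lay within 0.01 of 0 at each.

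TLR9 measured 9.70 and 9.54 in DOHH2 CSKi libraries at 1 h, against 10.44 and 10.51 in DMSO libraries. At 3 h it measured 9.72 and 9.91 in CSKi libraries, against 10.28 and 10.19 in DMSO libraries. At 6 h it measured 9.29 and 9.39 in CSKi libraries, against 9.99 and 9.99 in DMSO libraries. Both CSKi libraries were below both DMSO libraries each time, while the DMSO level itself drifted down. The log2 fold changes were -0.86 ± 0.07 (SE, limma adjusted p = 5.48e-09), -0.42 ± 0.07 (adjusted p = 0.000118) and -0.65 ± 0.07 (adjusted p = 1.78e-07).

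TLR10 measured 9.73 and 9.51 in DOHH2 CSKi libraries at 1 h, against 9.98 and 10.10 in DMSO libraries. At 3 h it measured 9.62 and 9.54 in CSKi libraries, against 10.21 and 10.02 in DMSO libraries. At 6 h it measured 9.40 and 9.04 in CSKi libraries, against 9.66 and 9.60 in DMSO libraries. The groups were apart at each time. The log2 fold changes were -0.42 ± 0.09 (SE, limma adjusted p = 0.0121), -0.53 ± 0.09 (adjusted p = 0.000191) and -0.41 ± 0.09 (adjusted p = 0.00285). The 1 h call for TLR10 was lost without CSKi replicate 2 (-0.31, adjusted p = 0.184) or DMSO replicate 2 (-0.36, adjusted p = 0.261), and the 6 h call without CSKi replicate 2 (-0.23, adjusted p = 0.140). Both calls for TLR10 were also lost without a filter on low features (adjusted p = 0.226 at 1 h and 0.0829 at 6 h) and without the variance trend (0.275 at 1 h and 0.0959 at 6 h).

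CD180 measured 10.37 and 10.50 in DOHH2 CSKi libraries at 1 h, against 11.02 and 11.00 in DMSO libraries. At 3 h it measured 10.93 and 11.00 in CSKi libraries, against 11.00 and 10.95 in DMSO libraries, and at 6 h 10.65 and 10.67 in CSKi libraries, against 10.63 and 10.59 in DMSO libraries. Only at 1 h were the CSKi libraries below the DMSO libraries. The log2 fold change was -0.57 ± 0.05 at 1 h (SE, limma adjusted p = 3.32e-08), with -0.01 ± 0.05 at 3 h and 0.05 ± 0.05 at 6 h, neither called. The level of CD180 minus that of LY86 in the same DOHH2 library at 1 h was 1.15 and 1.31 in CSKi libraries, against 1.80 and 1.68 in DMSO libraries. For this difference the groups overlapped at 3 h. Its direction was reversed at 6 h, with 1.926 and 1.901 in DOHH2 CSKi libraries against 1.503 and 1.304 in DMSO libraries.

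LY86 measured 8.73 and 8.77 in DOHH2 CSKi libraries at 6 h, against 9.13 and 9.28 in DMSO libraries, and the groups were apart. The log2 fold change was -0.46 ± 0.08 (SE, limma adjusted p = 0.000325), a call that held without each library in turn. MYD88 at 6 h measured 11.86 and 11.89 in CSKi libraries, against 12.04 and 12.04 in DMSO libraries, with a fold change of -0.17 ± 0.04 (adjusted p = 0.00848). UNC93B1 at 6 h measured 10.31 and 10.63 in CSKi libraries, against 10.72 and 10.79 in DMSO libraries, with a fold change of -0.29 ± 0.08 (adjusted p = 0.0119). The MYD88 call was lost without CSKi replicate 1 (adjusted p = 0.0634), DMSO replicate 1 (0.0576) or DMSO replicate 2 (0.0505). The UNC93B1 call was lost without CSKi replicate 1 (-0.13, adjusted p = 0.336) or DMSO replicate 2 (-0.25, adjusted p = 0.112). Without a filter on low features MYD88 (adjusted p = 0.0520) and UNC93B1 (0.167) were not called, nor without the variance trend (0.0888 for MYD88 and 0.175 for UNC93B1). Of the 6 B cell markers 2 were higher and 3 lower in DOHH2 at 6 h, with a median of -0.12, and their part in these values was not tested.

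TLR7 in DOHH2 rested on fewer reads than in TMD8 and was not called. It measured 7.39 and 7.24 in CSKi libraries at 1 h, against 7.63 and 7.49 in DMSO libraries, and 7.18 and 6.96 in CSKi libraries at 6 h, against 6.84 and 6.71 in DMSO libraries. The log2 fold changes of -0.24 ± 0.15 at 1 h (SE, limma adjusted p = 0.512) and 0.29 ± 0.15 at 6 h (adjusted p = 0.214) differed in sign. TLR1 had a fold change of 0.37 ± 0.15 at 6 h (adjusted p = 0.113) and was called higher at 0.59 without DMSO replicate 2 (adjusted p = 0.0348). TLR6 lay between 6.51 and 7.002 in CSKi libraries and between 6.59 and 7.17 in DMSO libraries at these times.

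With the DOHH2 24 h libraries in the same fit the fold changes stayed as given, but the shared estimate of spread was larger and only TLR9 at 1 h remained called among the DOHH2 members (adjusted p = 0.0352). CD180 at 1 h then had an adjusted p of 0.0618 and TLR9 at 6 h 0.0813. At 24 h as labelled, the 9 fold changes ran from -0.07 for MYD88 to 0.20 for TLR6. No member and none of the 12000 features was called by limma, 378 features and 0 members had an unadjusted p under 0.05, and voom called none. TLR10 measured 10.72 and 9.51 in the libraries labelled CSKi, against 9.66 and 10.22 in those labelled DMSO, so its duplicates differed by more than the groups did, and without CSKi replicate 2 it was called higher at 0.78. TLR9 measured 10.41 and 10.15 in the libraries labelled CSKi, against 9.95 and 10.65 in those labelled DMSO.

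**Figure D3:**
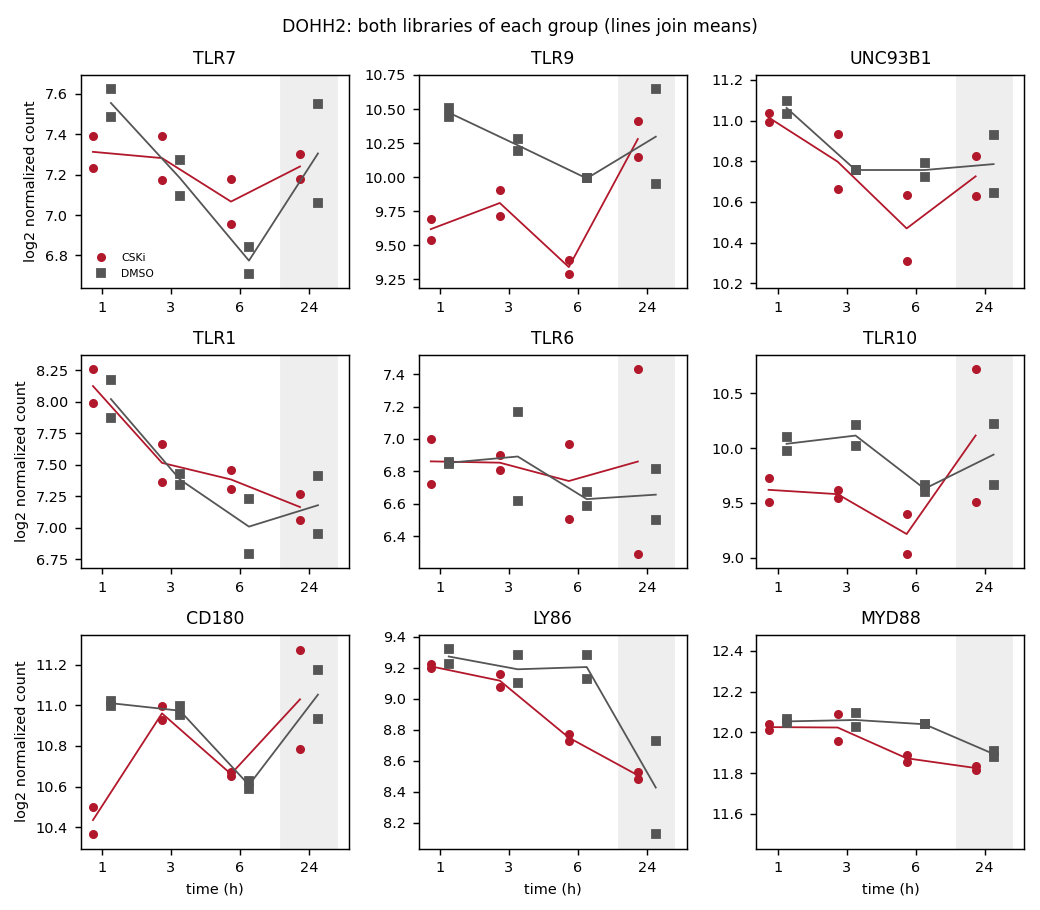
Log2 normalised counts (vertical axis, 1 panel per gene with its own range) of both DOHH2 libraries of each group against time in h (horizontal axis, evenly spaced), CSKi as circles and DMSO as squares, with lines through the means. TLR9 lies below DMSO at 1, 3 and 6 h and CD180 only at 1 h, and the 24 h groups on the grey band, which are given as labelled, overlap for most genes.

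The responses of the lines differed for 5 of the members at 1 time or more. The difference was tested as the fold change in TMD8 minus that in DOHH2, and a call means that the responses differed, whatever each line's own call. At 1 h 2 members differed, beside 0.45% of features. TLR9 fell in DOHH2 at that time and not in TMD8, a difference of 0.81 ± 0.09 (SE, limma adjusted p = 2.06e-05), and CD180 did the same, with 0.60 ± 0.07 (adjusted p = 2.06e-05). At 3 h 2 differed, beside 4.82% (2.64% lower and 2.18% higher): CD180, lower in TMD8 by then and level in DOHH2 (-1.06 ± 0.07, adjusted p = 9.72e-10), and TLR7 (-0.83 ± 0.17, adjusted p = 0.00467). CD180 thus fell at 1 h in DOHH2, and at 3 and 6 h in TMD8. With the DOHH2 24 h libraries in the fit, the 1 h differences kept their size but had adjusted p = 0.0998 for TLR9 and 0.0934 for CD180.

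At 6 h 5 members differed between the lines, beside 5.98% of features (3.46% lower and 2.52% higher in the TMD8 response). CD180 differed by -1.13 ± 0.07 (SE, limma adjusted p = 1.77e-10), TLR7 by -0.91 ± 0.17 (adjusted p = 0.00119) and TLR1 by -0.89 ± 0.22 (adjusted p = 0.0162), all lower in the TMD8 response. TLR9 differed by 0.57 ± 0.09 (adjusted p = 0.0002) and LY86 by 0.78 ± 0.13 (adjusted p = 0.000206), both higher in the TMD8 response. The TLR1 difference was lost without any 1 of 5 of the 8 libraries compared, 3 from TMD8 and 2 from DOHH2 (adjusted p = 0.0507 to 0.121). At 3 h the TLR1 difference of -0.76 missed the threshold (adjusted p = 0.0522) and passed it without DOHH2 CSKi 3 h replicate 1 (-0.91, adjusted p = 0.0419). With the DOHH2 24 h libraries in the fit the 6 h differences of TLR9 (adjusted p = 0.135) and TLR1 (0.0605) were not called. No difference was called for TLR10 (at 1 h 0.55 ± 0.18, adjusted p = 0.354), nor for TLR6, MYD88 or UNC93B1.

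**Figure D4:**
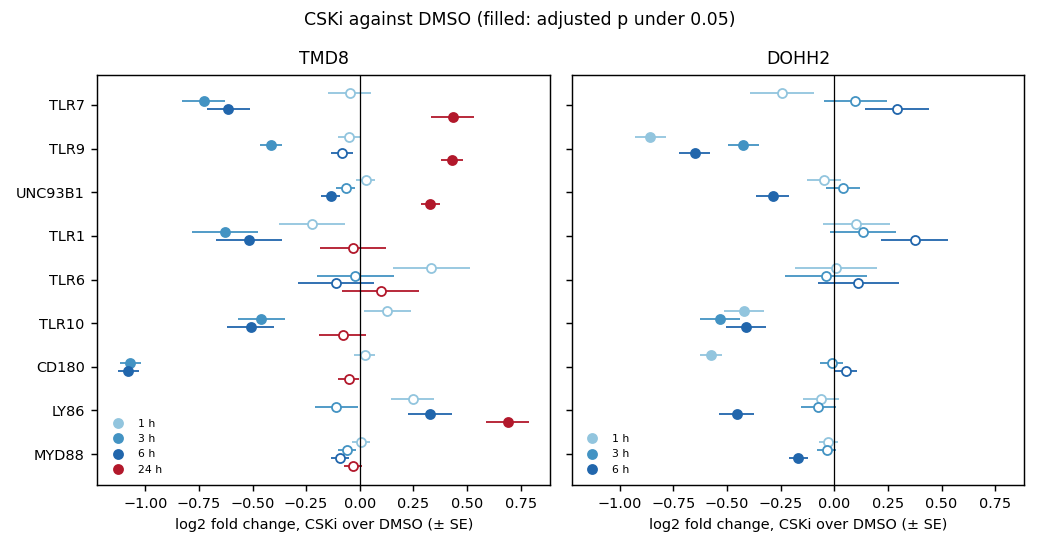
Log2 fold change of CSKi over DMSO ± SE (horizontal axis) for each gene (vertical axis) in TMD8 at 1, 3, 6 and 24 h (left) and in DOHH2 at 1, 3 and 6 h (right), filled where limma's adjusted p is under 0.05. CD180 stands at -1.07 and -1.08 in TMD8 at 3 and 6 h but at -0.57 in DOHH2 at 1 h, and TLR9 is lower at all 3 times in DOHH2.

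The balance of the endosomal receptors stood apart from vehicle in opposite directions in the 2 lines at 3 and 6 h. The level of TLR9 minus that of TLR7 in the same library, not corrected for length, was 3.05 and 3.30 in TMD8 CSKi libraries at 6 h, against 2.64 and 2.66 in DMSO libraries. In DOHH2 at 6 h it was 2.11 and 2.43 in CSKi libraries, against 3.15 and 3.28 in DMSO libraries. At 3 h it was 2.98 and 2.99 in TMD8 CSKi libraries, against 2.68 and 2.66 in DMSO libraries, and 2.33 and 2.73 in DOHH2 CSKi libraries, against 3.00 and 3.10 in DMSO libraries. In TMD8 the groups overlapped at 1 h, with 2.23 and 2.42 in CSKi libraries against 2.29 and 2.36 in DMSO libraries, and at 24 h, with 2.90 and 2.48 in CSKi libraries against 2.73 and 2.64 in DMSO libraries. In DOHH2 at 1 h it was 2.31 in both CSKi libraries, against 2.82 and 3.02 in DMSO libraries. No test was run on these differences. TLR7 in DOHH2 rested on 81 to 136 reads at 3 and 6 h and was not called. At 3 h the TLR9 response differed by only 0.01 ± 0.09 between the lines (SE, not called), while TLR7 was called lower in TMD8 alone.

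The other genes of the pathway were examined as 4 lists, whose counts stand beside the shares of all features called: in TMD8 4.73% at 3 h, 12.6% at 6 h and 54% at 24 h (27.9% higher and 26.2% lower), and in DOHH2 2.05% at 1 h, 14.5% at 3 h and 13.6% at 6 h. Of the 7 other receptor and co-receptor genes, 4 were tested in TMD8. TLR4, the receptor for lipopolysaccharide, fell there at 3 h, with 9.03 and 9.06 in CSKi libraries against 9.41 and 9.59 in DMSO libraries (-0.46 ± 0.08 SE, limma adjusted p = 0.000785), and at 6 h (-0.38). TLR2, the partner of TLR1 and TLR6, fell at 6 h (-0.46), as did TLR8 (-0.80), an RNA sensor related to TLR7. The TLR8 call was lost without CSKi replicate 2 (-0.49, adjusted p = 0.353), DMSO replicate 1 (0.0744) or DMSO replicate 2 (0.192), without a filter (0.140) and without the variance trend (0.101). Thus 1 of 4 fell at 3 h, 3 of 4 at 6 h with TLR8 among them, and none at 24 h, and LY96, the co-receptor of TLR4, was at 0.40 at 3 h and 0.12 at 6 h without a call. In DOHH2, TLR2 and TLR4 were near the lower end of the tested range, TLR8 was listed at 0 reads in every library, which allows up to 3 reads in each, and none of the 3 tested genes of the list was called.

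Of 25 adaptor and signal transmission genes, 24 were tested, with 1 lower at 3 h and at 6 h in TMD8, PIK3AP1 (-0.15 and -0.28), an adaptor that links receptors to PI3K. Its 3 h call was lost without any 1 of the 4 libraries (adjusted p = 0.0574 to 0.251) and without the variance trend (0.114). IRF5, a transcription factor activated through MYD88, was at 0.18 at 3 h without a call, and IRAK1 (-0.11), IRAK4 (0.15) and IKBKB (0.11), kinases below MYD88, were not called at 6 h. TAB1 and TAB2, subunits of the TAK1 kinase complex, were at 0.17 each at 3 h, not called. At 24 h 6 were higher and 5 lower, among them IKBKB (0.42) and TRAF3 (0.31) higher and UBE2N (-0.48) and TICAM2 (-0.72) lower. In DOHH2 none was called at 1 h. At 3 h 1 was higher and 4 were lower, PIK3AP1 (-0.32), CHUK (-0.23), IRF5 (-0.26) and TICAM2 (-0.67), and at 6 h 2 were higher and 3 lower, among them PELI1 (0.19), PIK3AP1 (-0.17), IRAK1 (-0.12) and UBE2N (-0.15). Several of these DOHH2 calls were lost without single libraries, with the highest adjusted p in parentheses. At 3 h these were IRF5 without CSKi replicate 1, CSKi replicate 2 or DMSO replicate 2 (0.266), TICAM2 without CSKi replicate 2 or either DMSO replicate (0.170) and CHUK without CSKi replicate 1 or DMSO replicate 1 (0.0839). At 6 h they were UBE2N without CSKi replicate 2 or either DMSO replicate (0.184), IRAK1 without CSKi replicate 1, at -0.08, or DMSO replicate 2 (0.146) and PELI1 without DMSO replicate 1 (0.0564). Those of IRF5, TICAM2, UBE2N and IRAK1 were also lost without a filter and without the variance trend. TICAM2 shares exons with a read-through transcript of TMED7, so its value is uncertain. The list's median was 0.01 at 3 h and below 0.01 in size at 6 h in TMD8, near the 0.01 and 0.02 of all features.

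Of 14 folding, trafficking and processing genes, 12 were tested. None was called in TMD8 at 3 h. At 6 h the endosomal proteases CTSB (0.22) and CTSS (0.25) rose, while the chaperone HSP90B1 (-0.08) and SDCBP (-0.17) were not called. At 24 h 5 were higher, among them CTSS (0.46) and CTSB (0.41), and 3 lower, among them CTSH (-0.52) and HSP90B1 (-0.31). In DOHH2 at 1 h 1 fell, TASL, listed in the table as CXorf21, which joins the endosomal transporter SLC15A4 to IRF5 (-0.62 ± 0.06 SE, limma adjusted p = 8.2e-08), while AP3B1 (0.12), AP3D1 (-0.08) and CTSS (-0.13) were not called. At 3 h 3 rose, AP3B1 (0.29), CTSS (0.30) and HSP90B1 (0.16), and 2 fell, among them CNPY3 (-0.23), a co-chaperone of Toll-like receptors. At 6 h 1 fell, HSP90B1 (-0.22), and SDCBP (0.15), CTSH (0.16) and AP3B1 (0.07) were not called.

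Of 15 negative regulators, 14 were tested. PTPN6, the phosphatase SHP-1, fell at 3 h in TMD8, with 13.32 and 13.29 in CSKi libraries against 14.07 and 14.05 in DMSO libraries (-0.75 ± 0.03 SE, limma adjusted p = 3.75e-15), further at 6 h (-1.22) and less at 24 h (-0.40). It also fell in DOHH2 at 1 h (-0.41), 3 h (-0.82) and 6 h (-0.61). NFKBIA, an inhibitor and target of NF-kB, fell in TMD8 at 3 h (-0.25), 6 h (-0.41) and 24 h (-0.78) and in DOHH2 at 1 h (-0.39), and was at 0.15 in DOHH2 at 6 h without a call. TNFAIP3, a deubiquitinase that damps NF-kB, fell in TMD8 at 3 h (-0.16), where TANK (-0.17) was not called. The TNFAIP3 call was lost without any 1 of the 4 libraries (adjusted p = 0.0860 to 0.265) and without the variance trend (0.0845), and that of NFKBIA at 3 h without CSKi replicate 1 (0.0971) or DMSO replicate 2 (0.112). TNIP1 (0.21) and IRAK3 (0.41), a kinase-like brake on MYD88 signalling, rose at 6 h in TMD8, so 3 of 14 were lower at 3 h, and 2 higher and 2 lower at 6 h. At 24 h 4 were higher, among them IRAK3 (0.68) and INPP5D (0.50), and 5 lower. In DOHH2 2 were lower at 1 h, where ATF3 (-0.41) and CYLD (0.08) were not called. At 3 h 2 rose, TANK (0.32) and CYLD (0.25), and 1 fell, with SOCS1 at -0.26 uncalled. The call was lost for TANK without DMSO replicate 1 (adjusted p = 0.120) and for CYLD without CSKi replicate 2 (0.0524), and that of PTPN6 at 1 h without the variance trend (0.0509). At 6 h 1 rose, INPP5D (0.24), and 1 fell, with SOCS1 at 0.34 uncalled. The list's median in TMD8 was -0.01 at 3 h and 0.02 at 6 h. With the DOHH2 24 h libraries in the fit, the genes named from the 4 lists that stayed called in DOHH2 were TASL at 1 h and AP3B1, CTSS, PIK3AP1 and PTPN6 at 3 h.

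CSK, a kinase that restrains the SRC family, stood at 14.07 to 14.25 in TMD8 CSKi libraries and at 14.19 to 14.25 in DMSO libraries. It was called lower at 3 h in TMD8 (-0.14 ± 0.03 SE, limma adjusted p = 0.0216) and at 3 h (-0.16) and 6 h (-0.21) in DOHH2. LYN, the SRC family kinase of B cells, was lower at 6 h in TMD8 (-0.14) and at 3 h in DOHH2 (-0.13) and higher at 6 h in DOHH2 (0.13). No deletion of either gene is part of the design.

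CD180 and TLR7 had the members' largest fold changes in TMD8, and the features most like them were sought by Pearson's r over the 16 TMD8 libraries. For CD180 these were PTPRCAP (r = 0.973), CD53 (0.971) and NFATC1 (0.970). For TLR7 they were LTB (0.973), TLE1 (0.944) and RNF144B (0.941). CD180 and TLR7 themselves had r = 0.911, while CD180 and LY86 had -0.402. These values describe 16 libraries that share line, treatment and times, and carry no test.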

How the data were processed

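RNA of TMD8 and DOHH2 cells was measured in 32 libraries, made as TruSeq stranded mRNA and read as paired 75 base reads, per the labels. Reads were counted with HTSeq on hg19, per the submitters' processing notes. Aligner, versions, strand setting and the authors' scaling factor were not given in the sources used here. Each deposited value is log2 of a normalised count, that is a read count times 1 factor per library, as the numbers themselves show, and 0 stands for no reads. After undoing the factor, 92.7 to 100% of values up to 300 reads in a library lay within 0.1 of a whole number. These recovered reads served for depth, for median of ratios scaling and for voom.

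The deposited log2 values were fitted with limma 3.58.1 in R 4.3.3 as group means, with eBayes(trend=TRUE) and Benjamini-Hochberg adjustment over the 12000 features of highest mean, called at adjusted p under 0.05. TMD8 comparisons used 16 libraries, DOHH2 comparisons the 12 at 1, 3 and 6 h, line differences these 28, and DOHH2 at 24 h all 16 of that line. The lowest mean tested was 21.2 reads in TMD8 and 16.3 in DOHH2, and the table's total of mapped reads was not tested. Scripts were tested on simulated data. Sequence motifs and figures used Python 3.11.15 and matplotlib 3.10.9. Promoters came from RefSeq (GRCh38.p14) and exonic lengths from GENCODE v29. No hg19 coordinate was used.

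All 9 members were tested in every comparison, though members without a call are not named in each. Up to 4 genes of smallest p are named from each pathway list in each contrast with a call in it. CSK and LYN are given once, and the 3 features most like each of the 2 members with the largest fold change in TMD8. The members, the lists and the choice to set the DOHH2 24 h libraries apart were made with earlier results of these data known. The alternatives tried were another filter or none, no variance trend, median of ratios scaling, voom, a pseudocount of 8, the replicate number as a block, only the groups compared, leaving out each library, and the DOHH2 24 h libraries included.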

Additional observations from a re-analysis of the deposited data

Results flagged for a closer look

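The response to CSKi differed between the lines for 5 genes at 9 gene and time combinations, by limma's test of the fold change in TMD8 minus that in DOHH2. At 1 h the difference was 0.808 on the log2 scale for TLR9 and 0.597 for CD180, both lower in DOHH2 with fold changes near 0 in TMD8. At 3 h it was -0.827 for TLR7 and -1.06 for CD180. At 6 h it was -0.89 for TLR1, -0.906 for TLR7, 0.566 for TLR9, -1.13 for CD180 and 0.784 for LY86. CD180 was present at all 3 times with a change of sign, positive at 1 h and negative at 3 and 6 h. LY86 at 6 h rose in TMD8 (0.33) and fell in DOHH2 (-0.46). The difference for TLR1 at 6 h rested on 71 to 165 reads per library and was lost when any 1 of 5 libraries was left out.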

How the results depend on the processing

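No result changed direction past the threshold under any alternative. For the members, 1110 values kept their side of the threshold under the alternatives other than leaving out a library, 29 lost a call and 17 gained one. With 1 library left out, 841 kept their side, 32 lost a call and 9 gained one. For the named pathway genes 563 kept their side under the alternatives, 29 lost a call and 11 gained one, and with 1 library left out 258 kept their side, 29 lost a call and 1 gained one. With the DOHH2 24 h libraries in the fit, members called in DOHH2 dropped to 1 at 1 h, 0 at 3 h and 0 at 6 h, and features called to 45, 315 and 106 (against 246, 1745 and 1635). Line differences then fell to 0 members and 17 features at 1 h, 151 features at 3 h and 3 members and 250 features at 6 h (against 54, 579 and 717 features). Fold changes were the same and the estimated spread was larger. Without a filter DOHH2 had 2 members called at 6 h, and 147, 1161 and 7 features at 1, 3 and 24 h. Without the variance trend DOHH2 had 2 members called at 6 h and 91, 1024, 948 and 1 features at 1, 3, 6 and 24 h, and TMD8 338 at 3 h (against 568). With only the groups compared, TMD8 had 1196 features at 3 h and the line difference 30 at 1 h. Leaving out 1 library gave 3 to 5 members and 256 to 315 features in TMD8 at 3 h, and 3 members and 836 to 889 features at 6 h (against 1518). In DOHH2 it gave 116 to 203 features at 1 h, 961 to 1344 at 3 h, 3 to 4 members and 1007 to 1266 features at 6 h, and 0 to 1 members and 0 to 647 features at 24 h. For the line difference at 3 h it gave 327 to 462 features. The cause of these shifts was not tested. Libraries with the same replicate number deviated together little (r = -0.005 to 0.166 in TMD8 and 0.022 to 0.057 in DOHH2 at 1 to 6 h). A low r cannot tell whether they share a culture or a batch. With that number as a block, members called were 5 in TMD8 at 3 h, 6 at 6 h and 4 at 24 h, and 3, 2 and 5 in DOHH2, as without it, while DOHH2 features at 1 h came to 472. The block gained a call for TLR1 in TMD8 vehicle over time (adjusted p = 0.0492) and in the line difference at 3 h (0.0463). In DOHH2 at 24 h the correlation was -0.476. With CSKi replicate 2 and DMSO replicate 1 put in the same block there, 0 members and 0 features were called. Depth limits TLR1 and TLR6 most, and TLR7 in DOHH2. For these, counting alone gives 10.5% (TLR6 in TMD8) to 12.8% (TLR6 in DOHH2) at the lowest of the vehicle libraries at 1 to 6 h.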
